A study of Mus musculus with 2 samples.

Results

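The 7 genes Clu, Krt19, Anxa1, Ly6a, Ly6e, Cd44 and S100a11 were followed in single-cell RNA-seq of ileal enteroids, which are organoids grown from intestinal crypts. They were taken as a fixed list of names out of 16665 genes listed in either count table, and all 7 were listed in both tables. The control library came from the enteroids labelled WT with ethanol, while the methods of the study give controls as Taf4 lox/lox enteroids without Cre that also received 4-OHT (4-hydroxytamoxifen). Whether the control cells got ethanol or 4-OHT is therefore not settled here. The Taf4 IEC library came from the enteroids labelled KO, whose genotype in the methods is Taf4 lox/lox::VilCreERT2, and which were treated with 4-OHT at 1 µM for 3 days to activate a Cre that the villin promoter drives in epithelial cells. Both came from mice of 4 months on a C57Bl6/129sv background, and live cells were sorted before capture. The number of mice behind each culture is not given in the sources used here. Taf4 encodes a part of TFIID, a general transcription factor, and the comparison asks how gene expression differs after its deletion. There was 1 library per condition, so no test between conditions was possible, and all 95% intervals cover counting error only. Genotype, treatment, culture and library cannot be told apart.

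The adult intestinal epithelium is renewed by Lgr5-positive stem cells at the crypt base. After injury, epithelial cells can pass through a repair state that switches on genes of the fetal gut, and YAP signalling through TEAD factors is known to take part in it. Ly6a, also called Sca-1, Anxa1 and Clu are widely used markers of this state. In the healthy epithelium Krt19 is a common simple-epithelial keratin and Cd44 a Wnt target of the crypt.

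The control library held 39947009 unique molecular identifiers (UMIs) in 2563 cells, with a median of 16749 per cell. The Taf4 IEC library held 24990128 UMIs in 1811 cells, with a median of 2254. Cells under 2000 UMIs made up 17.3% of control and 49.1% of Taf4 IEC cells, but only 1.22% and 3.06% of the UMIs. The tables shared 2 cell barcodes. Taf4 itself had 278 control and 236 Taf4 IEC UMIs, a log2 ratio of 0.44 (0.18 to 0.70), so its level was not lower in the library labelled KO. The libraries read the 3′ end of transcripts, the sources used here do not give the deleted exons, and this count therefore does not check the deletion. Epithelial markers stood at 15.6 and 16.1 UMIs per 10000. Of 12 markers of immune, stromal and endothelial cells, 8 were listed in the count tables. These summed to 0.0265 UMIs per 10000 in control and 0.0264 in Taf4 IEC cells. Ptprc, Col3a1, Acta2 and Cdh5 were listed in neither table.

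Over all cells, each of the 7 genes had a higher level in the Taf4 IEC library than in the control, where a level is the UMIs of a gene per 10000 UMIs. The size ranged from 1.53-fold for Ly6e to 8.68-fold for Ly6a. Since 3′ counts are not given per transcript length, levels are compared between libraries and cell classes and not between genes. A total of 10002 genes reached 200 UMIs when the libraries were added up, and their median log2 ratio was 0.16, so ratios should be read relative to that shift.

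Krt19 (chr11:100140810-100145926), an intermediate filament protein, had 25114 UMIs in control and 40803 in Taf4 IEC cells. Its levels were 6.29 (6.21 to 6.37) and 16.3 (16.2 to 16.5) per 10000, a log2 ratio of 1.38 (1.354 to 1.3997). Krt19 was detected throughout both libraries, and cells of at least 2000 UMIs lacked it in only 5.80% (control) and 5.43% (Taf4 IEC) of cases.

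Anxa1 (chr19:20373434-20390671) encodes a calcium-dependent phospholipid-binding protein with a role in resolving inflammation. It had 328 control and 406 Taf4 IEC UMIs, or 0.0821 (0.0735 to 0.0915) and 0.162 (0.147 to 0.179) per 10000. The log2 ratio was 0.98 (0.77 to 1.20). S100a11 (chr3:93520496-93526288), a small calcium-binding protein that partners annexins, had 4149 and 6315 UMIs. Its levels were 1.04 (1.01 to 1.07) and 2.53 (2.47 to 2.59) per 10000, a log2 ratio of 1.28 (1.23 to 1.34). The S100a11 intervals of the libraries stood well apart.

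Ly6a and Ly6e encode small surface proteins held by a lipid anchor, and the genes lie near each other at chr15:74994877-74998031 and chr15:74955025-74959904. Ly6a had 288 UMIs in control and 1564 in Taf4 IEC cells, or 0.0721 (0.0640 to 0.0809) and 0.626 (0.595 to 0.658) per 10000. Its log2 ratio of 3.12 (2.94 to 3.30) was the 19th highest of the 10002 genes. Ly6e had 7353 and 7041 UMIs, or 1.84 (1.80 to 1.88) and 2.82 (2.75 to 2.88) per 10000, a log2 ratio of 0.61 (0.57 to 0.66). The Ly6 family has close paralogs, so part of the reads of Ly6a may have been dropped or assigned to other members by the authors' counting.

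Cd44 (chr2:102811141-102901669), a receptor for hyaluronan, had 477 control and 675 Taf4 IEC UMIs. Its levels were 0.119 (0.109 to 0.131) and 0.270 (0.2501 to 0.2913) per 10000, a log2 ratio of 1.18 (1.01 to 1.35). Clu (chr14:65968483-65981548), the secreted chaperone clusterin, was sparse with 45 and 61 UMIs. Its levels were 0.0113 (0.00822 to 0.0151) and 0.0244 (0.0187 to 0.0314) per 10000, a log2 ratio of 1.12 (0.54 to 1.70).

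**Figure D1:**
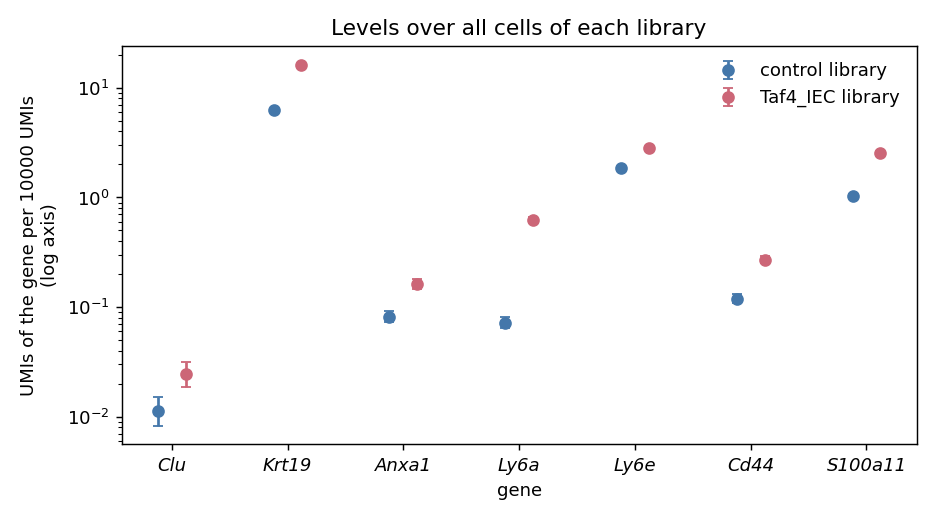
Levels of the 7 genes in UMIs per 10000 (log axis) in the control (blue) and Taf4 IEC (red) library, with exact 95% Poisson intervals. Each red point lies above its blue partner, by most for Ly6a (0.0721 against 0.626) and by least for Ly6e (1.84 against 2.82).

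Clu fell short of the 200 UMIs set for counting genes past a fold. Of the other 6 genes, Krt19, Ly6a, Cd44 and S100a11 were at least 2-fold higher in Taf4 IEC cells and none was at least 2-fold lower, against 5.52% and 3.48% of all 10002 genes. Anxa1 was 1.98-fold higher and so lay just under that line. The paper had already reported Clu and Krt19, printed there as Kr19, among regenerative markers that were increased after Taf4 loss. The values of Clu and Krt19, and the count with Krt19 in it, are therefore not independent of that report. The levels did not depend on the shallow cells alone. In cells of at least 2000 UMIs the log2 ratios were 1.38 for Krt19, 0.95 for Anxa1, 3.12 for Ly6a, 0.61 for Ly6e, 1.16 for Cd44, 1.28 for S100a11 and 1.08 for Clu. Centred on the median of all genes, the 7 ratios stayed above 0.

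Promoter sequence was taken from RefSeq on GRCm38.p6, the build of the mm10 alignment, for the 3 of these genes that its table held, namely Anxa1, Cd44 and S100a11. The 250 bases before each start are printed 5′ to 3′ on the gene's own strand, since these genes had higher levels in the same library. Capitals mark matches on either strand to a TEAD site (GGAATG), an AP-1 site (TGANTCA), the TATA box (TATAAA) or the GAS element (TTCNNNGAA). The Anxa1 window is chr19:20390672-20390921 on the minus strand, that of Cd44 chr2:102901666-102901915 on the minus strand, and that of S100a11 chr3:93520246-93520495 on the plus strand.
Anxa1: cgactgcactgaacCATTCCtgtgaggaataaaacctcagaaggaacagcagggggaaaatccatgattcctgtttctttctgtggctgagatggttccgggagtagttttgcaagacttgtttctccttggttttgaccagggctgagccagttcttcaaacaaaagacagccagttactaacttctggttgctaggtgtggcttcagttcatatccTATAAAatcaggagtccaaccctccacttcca
Cd44: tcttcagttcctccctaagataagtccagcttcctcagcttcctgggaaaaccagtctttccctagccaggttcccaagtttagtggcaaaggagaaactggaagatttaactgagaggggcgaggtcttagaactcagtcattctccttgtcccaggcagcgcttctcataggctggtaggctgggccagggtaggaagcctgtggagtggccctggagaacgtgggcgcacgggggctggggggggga
S100a11: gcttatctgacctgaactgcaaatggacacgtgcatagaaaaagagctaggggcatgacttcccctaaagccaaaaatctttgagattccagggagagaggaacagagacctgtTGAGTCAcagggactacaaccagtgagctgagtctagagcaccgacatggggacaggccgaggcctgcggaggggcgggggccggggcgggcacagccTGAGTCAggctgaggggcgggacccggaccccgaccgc

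The Anxa1 window held 1 TEAD match, on the opposite strand and starting 236 bases before the start, and 1 TATA box starting 32 bases before it. The S100a11 window held 2 AP-1 matches, starting 136 and 38 bases before the start. The Cd44 window held none of the 4 motifs. Among 32851 windows of the same length, 12.6% held a TEAD match, 6.75% an AP-1 match, 12.4% a TATA box and 7.02% a GAS element. The matches describe the letters only, and factor binding was not measured in these libraries.

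To see which cells carried the genes, each library was clustered without the 7 genes and their related genes, and clusters were named from marker genes. There were 1156 control and 452 Taf4 IEC cells with a stem-like name, 213 and 317 enterocyte-like cells, 270 and 187 cells of a joint Paneth/goblet-like class, and 250 and 212 enteroendocrine-like cells. A further 674 control and 628 Taf4 IEC cells stayed unnamed, and 15 Taf4 IEC cells were tuft-like. No control cluster got that name, although clustering both libraries together gave it to 6 control and 12 Taf4 IEC cells. At a resolution of 1.4 it went to 93 control and 15 Taf4 IEC cells, so tuft-like cells are not compared between the libraries. The intervals between libraries below are again for counting error in 1 library each.

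In this clustering the stem-like cells held the highest ratios over the control for 6 of the 7 genes, all but Ly6e. For Ly6a this order was not resolved without the richest cells. The enterocyte-like log2 ratio was then 6.19 (3.69 to 11.5), on 1 control UMI, and the stem-like one 5.32 (4.88 to 5.80). Anxa1 was at 0.0506 (0.0420 to 0.0605) in control and 0.318 (0.283 to 0.356) per 10000 in Taf4 IEC stem-like cells, a log2 ratio of 2.65 (2.34 to 2.97). Ly6a was at 0.0194 (0.0142 to 0.0259) and 0.849 (0.791 to 0.910), which gives a log2 ratio of 5.45 (5.02 to 5.91) or 43.7-fold. In the Taf4 IEC library it was second to the Paneth/goblet-like cells.

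Krt19 was at 5.05 and 18.5 per 10000 in stem-like cells, a log2 ratio of 1.87 (1.84 to 1.90). S100a11 was at 0.901 and 3.105, a log2 ratio of 1.78 (1.70 to 1.87). Cd44 was at 0.149 and 0.548, a log2 ratio of 1.88 (1.68 to 2.08). These genes differed between the libraries by similar amounts, while Ly6e at 1.52 and 2.66 (log2 ratio 0.81, 0.74 to 0.89) differed less. Clu had only 21 and 30 stem-like UMIs, with a log2 ratio of 1.85 (0.99 to 2.72).

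Of the 6 genes with enough UMIs in stem-like cells, 5 were at least 2-fold higher in Taf4 IEC cells, all but Ly6e, and none was at least 2-fold lower. Among the 8313 genes counted in this class the shares were 3.81% and 2.49%. The stem-like classes were made of different clusters. In control they were led by histone, mitotic or replication genes, by Olfm4, or by Gm12888, Stk39 and Kcnn4 (89 cells), and the largest Taf4 IEC cluster (187 cells) was led by Ccnd1, Myc, Lgr5 and Olfm4 and by Ly6d and Anxa1, which had been left out of the clustering. That cluster held 709 of the 799 Ly6a UMIs and 261 of the 299 Anxa1 UMIs of the class. In the proliferative Taf4 IEC cluster of 74 cells led by Pclaf and Cdc20, Ly6a was at 0.283, Krt19 at 10.0 and Anxa1 at 0.105 per 10000. The control clusters led by Hist1h1b and by Cenpf (325 and 251 cells) had 0.0172 and 0.0210 for Ly6a, 3.62 and 5.18 for Krt19, and 0.0409 and 0.0593 for Anxa1. The Gm12888-led control cluster had 0.0661 for Ly6a, 6.18 for Krt19 and 0.264 (0.192 to 0.355) for Anxa1, the last above that of the 74-cell Taf4 IEC cluster.

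The sizes changed with the clustering and the naming of clusters. When both libraries were clustered together, only 67 Taf4 IEC cells were stem-like, and the log2 ratios in stem-like cells were 0.50 for Anxa1, 3.09 for Ly6a and 0.67 for Krt19. With markers required at 2 times the mean level, which left 584 control and 74 Taf4 IEC stem-like cells, they were 0.73, 3.86 and 1.17. The stem-like ratio was then not always the highest. With both libraries clustered together, Paneth/goblet-like cells were at 0.91 for Krt19 and 3.20 for Ly6a. For Anxa1 the sparse enteroendocrine-like ratio was at 0.93 or more in every setting, above both of these stem-like values.

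**Figure D2:**
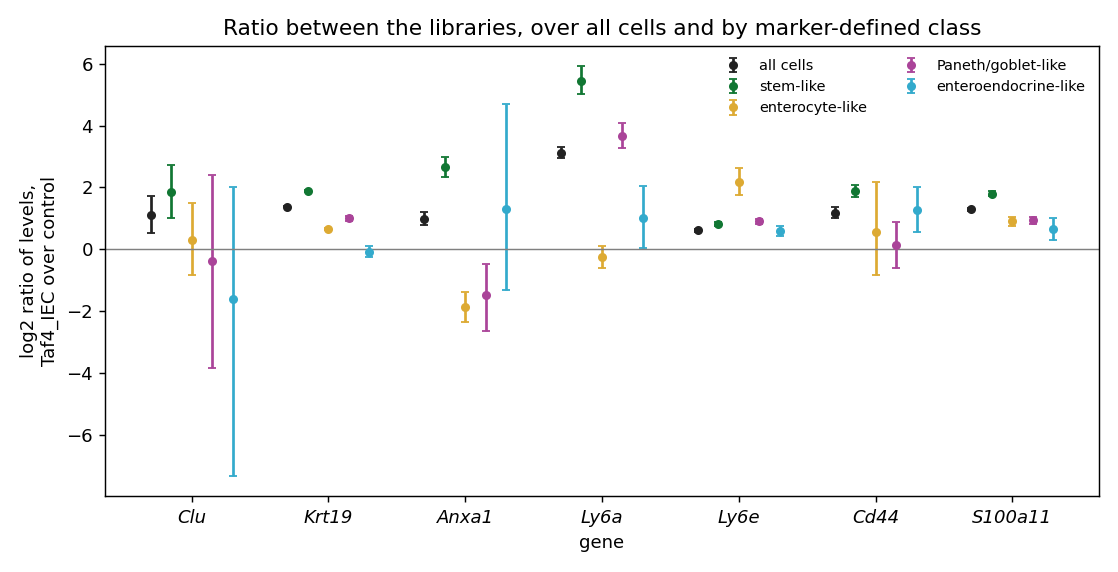
Log2 ratio of levels, Taf4 IEC over control, for each gene over all cells (black) and in 4 marker-defined classes (colours), with exact 95% intervals for counting error. Stem-like points lie above 0 for all 7 genes, reaching 5.45 for Ly6a, while Anxa1 lies below 0 in enterocyte-like (-1.87) and Paneth/goblet-like cells (-1.496).

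In Paneth/goblet-like cells Ly6a stood out. Ly6a was at 0.127 (0.0969 to 0.164) in control and 1.60 (1.47 to 1.75) per 10000 in Taf4 IEC cells, a log2 ratio of 3.66 (3.26 to 4.07). That size changed with the clustering. At a resolution of 1.4, which gave the class 186 control and 194 Taf4 IEC cells, the Ly6a log2 ratio was 1.597. Ly6e, which had its highest class level here in both libraries, was at 5.21 and 9.71, a log2 ratio of 0.90 (0.82 to 0.98). The Taf4 IEC class consisted of a cluster of 87 cells led by Muc2 and Zg16 and one of 100 shallow cells led by defensin genes. Of its 488 Ly6a UMIs, 480 were in the former. The control class was a single cluster led by Defa24, Spink4 and Ang4, so the mix of goblet and Paneth transcripts differed beside this ratio, and its part in it was not tested.

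Krt19 was at 6.77 and 13.5 per 10000 in Paneth/goblet-like cells (log2 ratio 0.99, 0.92 to 1.06) and S100a11 at 2.06 and 3.93 (0.93, 0.81 to 1.05). Anxa1 was lower in the Taf4 IEC class, at 0.0928 and 0.0329, on 43 and 10 UMIs. Of those 43 control UMIs, 18 came from 1 cell, and without the richest cell of each library the log2 ratio was -1.22 (-2.67 to 0.03). Cd44 had 39 and 28 UMIs and Clu 4 and 2, and the intervals of both ratios included 0. Of 4 genes with enough UMIs, Ly6a alone was at least 2-fold higher and none was at least 2-fold lower, against 2.97% and 2.03% of 3833 genes.

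In enterocyte-like cells the control values of several of these genes rested on 1 cell. Ly6a had 112 control UMIs in this class and 111 of them lay in a single cell of 36502 UMIs, which also held 437 UMIs of Krt19, 190 of S100a11, 76 of Anxa1, 13 of Ly6e and 4 of Cd44. That cell was not called a doublet. It had 3 UMIs of Apoa1 and 0 of Fabp1, enterocyte genes that stood at 16.0 and 43.0 per 10000 in its cluster, and 615 of Krt8, 328 of Anxa2, 135 of Ly6d, 107 of Areg and 73 of Sprr1a. It thus carried 6 of the 7 genes together, without Clu and nearly without Apoa1 and Fabp1.

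With that cell, Ly6a was at 0.257 in control and 0.216 per 10000 in Taf4 IEC enterocyte-like cells, a log2 ratio of -0.25 (-0.60 to 0.10). Without the cell richest in Ly6a of each library, the control kept 1 UMI and the log2 ratio was 6.19 (3.69 to 11.5). Anxa1 was at 0.241 and 0.0659 per 10000, a log2 ratio of -1.87 (-2.36 to -1.40). Without the richest cell of each library it was -0.35 (-1.04 to 0.37), an interval that includes 0, since 76 of the 105 control UMIs lay in the single cell.

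Krt19 was at 11.7 and 18.4 per 10000 in enterocyte-like cells, a log2 ratio of 0.65 (0.61 to 0.70), and S100a11 at 1.00 and 1.87, a log2 ratio of 0.90 (0.75 to 1.05). Of the 437 control S100a11 UMIs 190 lay in the single cell, and without the richest cell of each library the log2 ratio was 1.57 (1.38 to 1.77), past the 2-fold line. Ly6e had its lowest class level here in both libraries, at 0.112 and 0.511, a log2 ratio of 2.18 (1.76 to 2.64). Of its 457 Taf4 IEC UMIs here, 431 lay in 1 cluster, described below, and the control cluster with the same leading gene got no class name. Cd44 had 6 and 18 UMIs and Clu 10 and 25, with intervals that included 0. Of 4 genes with enough UMIs, Ly6e alone was at least 2-fold higher and none was at least 2-fold lower, against 2.13% and 1.46% of 5061 genes.

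The enterocyte-like class also differed in its clusters. The control had 1 cluster, led by Apoa1, Apoc3 and Fabp1. The Taf4 IEC class had 1 such cluster of 174 cells and a second of 143 cells led by Tmem237 and Lgals3. This second cluster held 431 of the 457 Ly6e, 1288 of the 1675 S100a11, 186 of the 193 Ly6a and 55 of the 59 Anxa1 UMIs of the Taf4 IEC class. A control cluster of 223 cells was also led by Tmem237 but stayed unnamed, so it is not in the control class. Between the Apoa1-led clusters, a comparison chosen after the clusters were seen, Krt19 was at 11.7 and 12.5 per 10000, S100a11 at 1.00 and 0.841, and Ly6e at 0.112 and 0.0565. The log2 ratios of S100a11 and Ly6e were thus -0.25 and -0.99, opposite in direction to those of the whole class. Without the richest cell of each library their intervals were -0.46 to 0.07 and -1.55 to 0.07, which include 0. Anxa1 was at 0.241 and 0.00869 per 10000 in these clusters, a log2 ratio of -4.79 (-6.70 to -3.39). Without the richest cells its log2 ratio was -3.94 (-7.05 to -1.95), on 29 and 2 UMIs. Only 6 of 213 control and 3 of 174 Taf4 IEC cells had an Anxa1 UMI there. Both values thus rest on few cells, and the intervals do not cover the spread between cells. The log2 ratio of Ly6a was -4.08, and without the richest cells, which left 1 and 5 UMIs, it was 2.24 (-0.92 to 7.81).

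The Tmem237-led clusters (223 unnamed control cells and the 143 Taf4 IEC cells) were a further pair with the same leading gene. Krt19 was at 9.84 and 24.6 per 10000 there, S100a11 at 1.16 and 2.96, and Ly6a at 0.139 and 0.428. The log2 ratios were 1.32 (1.27 to 1.37), 1.36 (1.20 to 1.51) and 1.62 (1.18 to 2.09). Ly6e at 1.504 and 0.991 was lower in the Taf4 IEC cluster, with a log2 ratio of -0.60 (-0.79 to -0.42), and Cd44 at 0.106 and 0.0391 was lower as well. Anxa1 at 0.137 and 0.126 had an interval that included 0. In neither pair of clusters was Ly6e higher in the Taf4 IEC library, unlike in the enterocyte-like class as a whole.

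Enteroendocrine-like cells had the lowest Krt19 level of the 4 classes in both libraries, at 2.19 (2.01 to 2.38) in control and 2.07 (1.90 to 2.26) per 10000 in Taf4 IEC cells. The log2 ratio was -0.08 (-0.26 to 0.10). S100a11 was at 0.436 and 0.684 (log2 ratio 0.65, 0.29 to 1.01), Ly6e at 2.35 and 3.52 (0.58, 0.43 to 0.73) and Cd44 at 0.0988 and 0.237 (1.26, 0.56 to 2.01). Ly6a had 14 and 29 UMIs, Anxa1 2 and 5, and Clu 3 and 1. Of 3 genes with enough UMIs, none was at least 2-fold higher or lower, where 2.57% and 0.887% of 3382 genes were.

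The order of the classes differed by gene. For Ly6e it was the same in both libraries, from Paneth/goblet-like over enteroendocrine-like and stem-like to enterocyte-like cells, and each step was beyond counting error. For Krt19 and Anxa1 the highest control level was in enterocyte-like cells and the highest Taf4 IEC level in stem-like cells, although for Krt19 the interval of the ratio of stem-like to enterocyte-like cells included 1. The control value of Anxa1 in enterocyte-like cells leaned on the single cell described above, and so did that of Ly6a, which was highest there in control. In the Taf4 IEC library Ly6a went from Paneth/goblet-like over stem-like and enterocyte-like to enteroendocrine-like cells, each step beyond counting error. For Cd44 the stem-like cells were highest in both libraries, in control without a difference beyond counting error from the enteroendocrine-like cells. For S100a11 the Paneth/goblet-like cells were highest in both. For Clu in control no neighbours in the order differed beyond counting error.

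**Figure D3:**
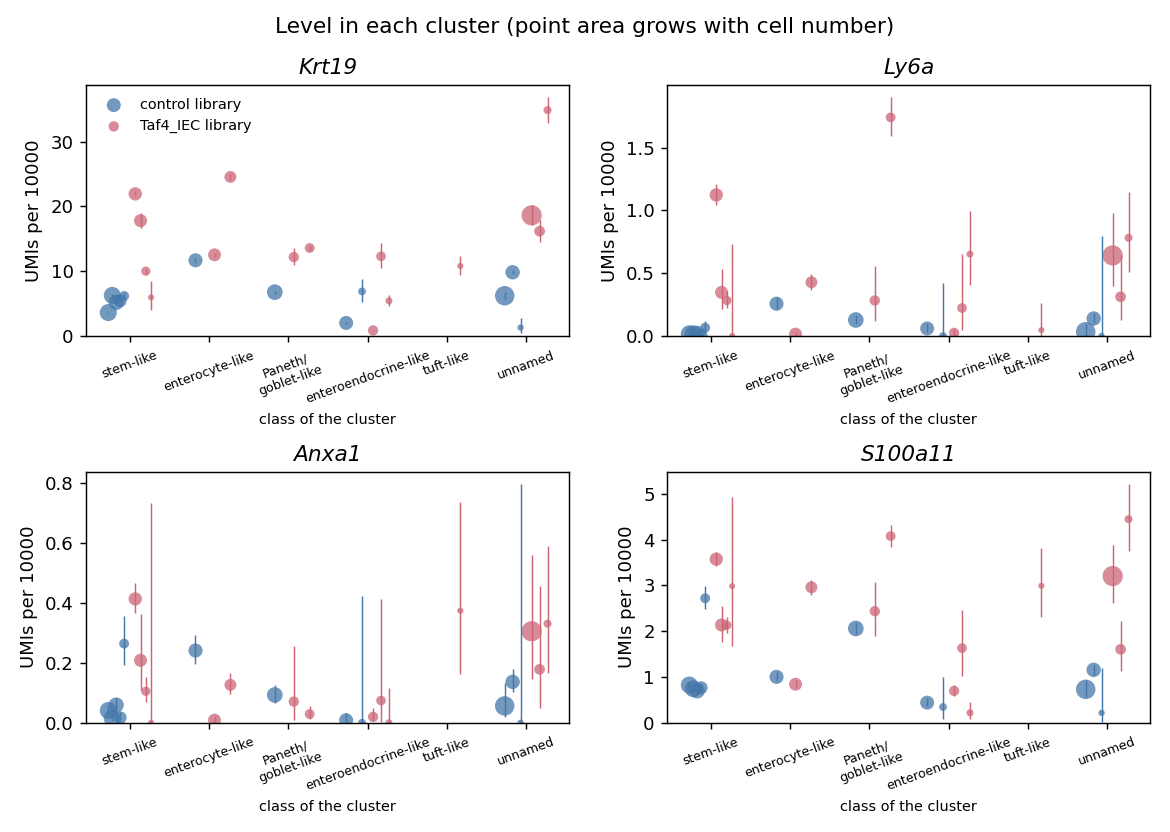
Level of Krt19, Ly6a, Anxa1 and S100a11 in UMIs per 10000 in every cluster of the control (blue) and Taf4 IEC (red) library, by class of the cluster, with exact 95% Poisson intervals and point area growing with cell number. The highest Ly6a points are Taf4 IEC clusters of Paneth/goblet-like (1.74) and stem-like cells (1.12), and the highest Krt19 point is an unnamed Taf4 IEC cluster of 48 cells (34.9).

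Depth per cell differed between the libraries, so shares of cells with a UMI were compared after each cell was thinned to 2000 UMIs, which left out 444 control and 890 Taf4 IEC cells. Ly6a was then found in 15 of 2119 control cells (0.708%) and 61 of 921 Taf4 IEC cells (6.62%). The difference was 5.92 percentage points (4.33 to 7.75). In enteroendocrine-like cells, the class with the lowest Ly6a level of the Taf4 IEC library, the shares were 1.49% and 4.29%. Since a class without Ly6a is not known here, the part of free RNA in these shares was not tested.

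Krt19 was found in 61.9% and 77.7% of the thinned cells and in 26.2% and 29.3% of the enteroendocrine-like ones. S100a11 was found in 14.7% and 26.6%, Ly6e in 26.0% and 33.6%, and Cd44 in 2.22% and 4.78%. The differences were beyond counting error for these 4 genes. Anxa1 was found in 1.60% and 2.71%, with a difference of 1.11 points (-0.03 to 2.47). Clu was found in only 3 control (0.142%) and 2 Taf4 IEC cells (0.217%), and the interval of the difference included 0 (-0.26 to 0.65 points). Thinned to 5000 UMIs, the Clu shares were 0.553% and 0.396%, the other way round. Without thinning, the shares of Krt19 were 86.0% and 81.5% and those of Ly6e 62.7% and 46.7%, opposite in direction to their levels.

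Ly6a was concentrated in few cells. A count of 5 or more Ly6a UMIs, a line drawn after the values were seen, was reached by 8 of 2563 control cells (0.312%, 0.135% to 0.614%) and 55 of 1811 Taf4 IEC cells (3.04%, 2.30% to 3.93%). These cells held 62.8% and 83.4% of all Ly6a UMIs, and none was a predicted doublet, although Scrublet called none in the whole Taf4 IEC library. Of the 8 control cells, 4 were Paneth/goblet-like, 1 enterocyte-like and 3 unnamed. Of the 55 Taf4 IEC cells, 26 were stem-like, 15 Paneth/goblet-like, 11 enterocyte-like, 2 enteroendocrine-like and 1 unnamed.

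The other genes were higher in the same cells in both libraries, given as a description since the cells were chosen by a gene of the list. In control, Anxa1 was at 5.59 per 10000 in the 8 cells and 0.0543 in the other 2111 cells of at least 2000 UMIs. In the Taf4 IEC library it was at 1.39 in the 55 cells and 0.0542 in the other 866. The control side leaned on the single enterocyte-like cell described above. That cell held 76 of the 112 Anxa1 UMIs of the 8 cells, 190 of their 463 S100a11 UMIs and 437 of their 881 Krt19 UMIs. Clu had 2 UMIs in the 8 cells. Outside the Ly6a-rich cells the Anxa1 levels of the libraries were nearly equal over all classes together, but not within each class.

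S100a11 was at 23.1 per 10000 in the Ly6a-rich and 0.927 in the other control cells, and at 10.5 and 1.84 in the Taf4 IEC cells. Krt19 was at 44.0 and 6.08 in control and at 33.8 and 14.8 in Taf4 IEC cells, so the other cells of the libraries also differed for Krt19. Cd44 was at 0.499 and 0.116, and at 0.534 and 0.241. The Ly6a-rich cells had medians of 24149.5 and 37790 UMIs against 18693 and 28088.5 in the other cells, and the part of depth in their selection was not tested.

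Within a class the pattern differed. Among Taf4 IEC stem-like cells, 19 of 26 Ly6a-rich cells had an Anxa1 UMI, and Anxa1 was at 2.25 per 10000 in them and 0.0904 in the others, beside 0.0506 in all control stem-like cells. Among the other enterocyte-like cells it was at 0.0674 in control and 0.0223 in Taf4 IEC cells. Among Taf4 IEC Paneth/goblet-like cells, 2 of 15 had one, and Anxa1 was at 0.0767 and 0.0163. In the 4 Ly6a-rich control Paneth/goblet-like cells, all 4 had an Anxa1 UMI, at 2.47 against 0.0398 per 10000.

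**Figure D4:**
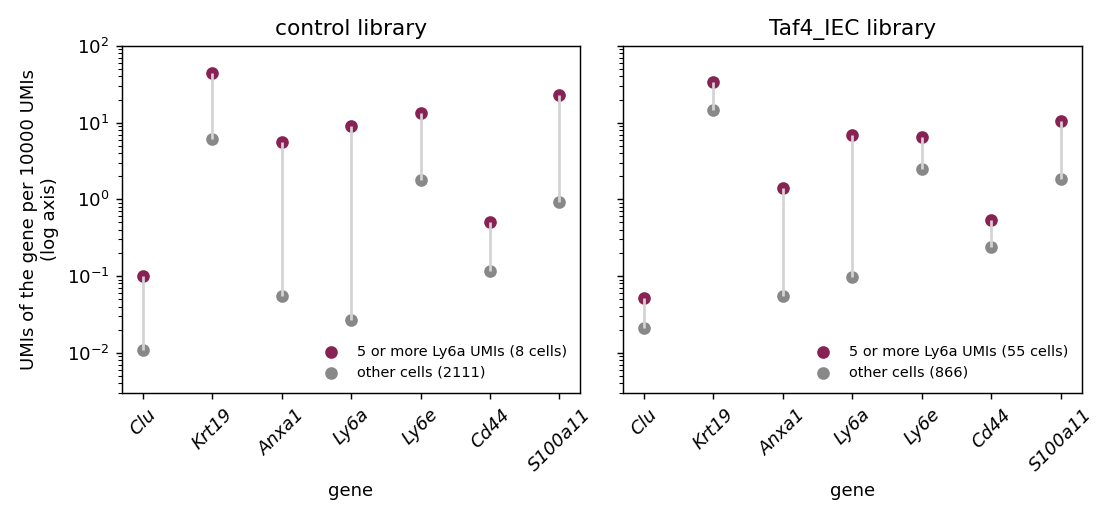
Level of each gene in UMIs per 10000 (log axis) in cells with 5 or more Ly6a UMIs (purple) and in the other cells of at least 2000 UMIs (grey), in the control (left, 8 and 2111 cells) and Taf4 IEC library (right, 55 and 866 cells). Purple lies above grey for each gene, and the grey Anxa1 points are nearly level between the panels (0.0543 and 0.0542). Ly6a itself chose the cells, and 1 of the 8 control cells held 76 of their 112 Anxa1 UMIs.

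Related genes were taken from a list of 80 names in 8 groups, of which 68 were listed in the files and 46 had at least 200 UMIs. Of these 46, 14 were at least 2-fold higher in the Taf4 IEC library and 1 was at least 2-fold lower, against 5.52% and 3.48% of all genes counted, which are also the shares behind the group counts below. Their median log2 ratio was 0.45, beside 0.16 over all genes. With every cell weighing the same, 9 were higher and 2 lower, but the shares over all genes are given for the main setting only.

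Of 11 genes of the YAP/TEAD pathway and its targets, only Areg and Il1rn were at least 2-fold higher, beside the 5.52% of all genes. The paper had already reported both as increased after Taf4 loss, so this count is not independent of that report and says nothing on the pathway as a whole. Areg, an EGF receptor ligand, had 6477 control and 13695 Taf4 IEC UMIs, a log2 ratio of 1.76 (1.71 to 1.80). The classical target Cyr61 was lower, with 635 and 199 UMIs and a log2 ratio of -0.997 (-1.234 to -0.765) that lay just inside the 2-fold line. The median of the group was 0.15. Of 8 other fetal and repair genes, F3 (tissue factor) and Trp53inp1 (a p53 target) were among those at least 2-fold higher, the latter with 253 and 1027 UMIs and a log2 ratio of 2.70. Sprr1a, a cornified envelope protein, was lower, with 758 and 230 UMIs and a log2 ratio of -1.04 (-1.26 to -0.83). None of 4 genes of the reserve stem cell group was past 2-fold in either direction.

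Among the families of the 7 genes, 2 of 7 annexins were at least 2-fold higher (5.52% of all genes were), Anxa3 at a log2 ratio of 2.36 (2.09 to 2.64) and Anxa6 at 1.06. Of 7 S100 genes, S100a1, S100a13, S100a16 and S100g were, S100g with the largest log2 ratio of 1.81. Of 2 Ly6 genes, Ly6d was at 2.19 (2.02 to 2.38), while Lypd8, a lipid-anchored relative of the gut lining, was at -0.97. Of 5 keratins, Krt8 was at 1.15 and Krt20 at 1.17. The ratios over all cells did not hold in every class: Krt20 was at -0.30 (-0.41 to -0.19) in enterocyte-like cells, and Anxa6 was at -0.95 in stem-like cells with an interval that included 0. Neither of 2 partners of Cd44 was past 2-fold.

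**Figure D5:**
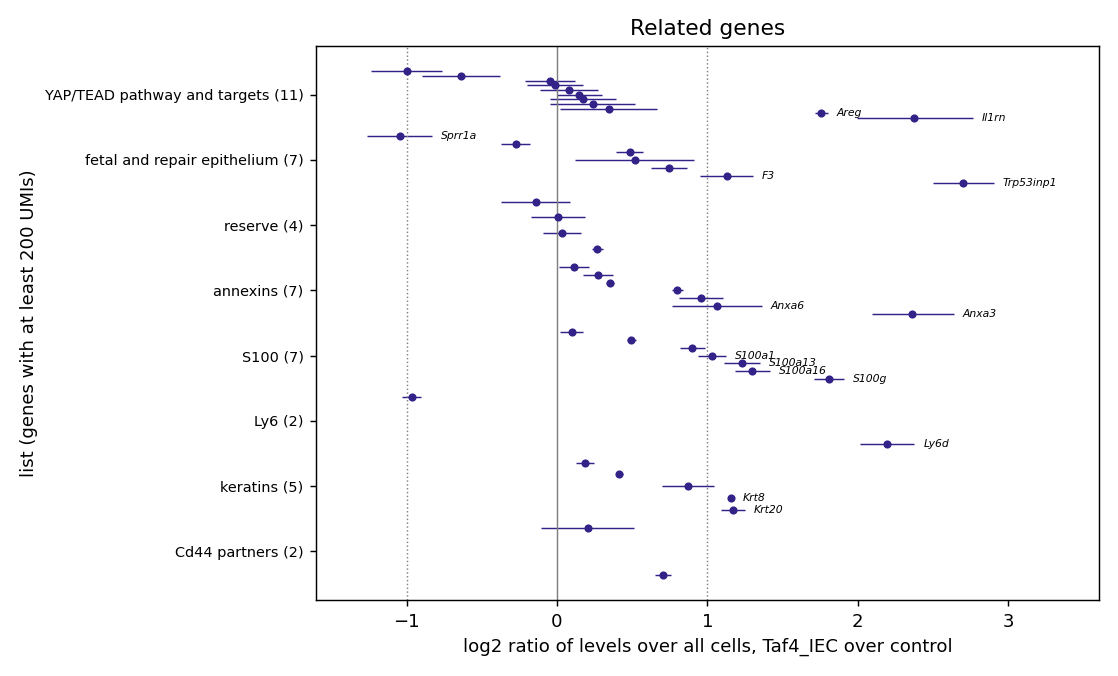
Log2 ratio of levels over all cells, Taf4 IEC over control, for related genes with at least 200 UMIs, by group (number plotted in brackets), with exact 95% intervals; dotted lines mark 2-fold. Labelled genes are past 2-fold and reach up to Trp53inp1 at 2.70 on the right, while Sprr1a lies to the left at -1.04.

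Over the 27 clusters, the gene most like each of the 7 was sought by Pearson's r of log2 levels centred within each library, among 5721 genes with at least 1000 UMIs. Anxa1 was most like Krt8 (r = 0.83) and next Cldn8 (0.70) and S100a11 (0.68). Ly6a was most like Nupr1 (0.79), Krt19 like Ifi27l2b (0.88), Ly6e like Lgals2 (0.89), Cd44 like Ebna1bp2 (0.85) and S100a11 like Phlda1 (0.79). Clu reached 0.74 with Mgst2. Clusters of a library share cells' origin and depth, so these r are descriptions. Among the 7 genes, the pairs of Anxa1, Krt19 and S100a11 had r of 0.61 to 0.68, and Ly6a and Cd44 had -0.17.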

How the data were processed

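Live cells of 1 control and 1 Taf4 IEC enteroid culture were captured with 10X Genomics 3′ chemistry. Per the labels and methods, the authors used bcl2fastq 2.17.1.14, Cell Ranger 3.1 and the mm10 genome. They deposited raw UMI counts of the listed genes in each cell, for cells of 200 to 6000 genes and under 15% mitochondrial reads. Genes without expression had been removed, so not every gene is listed. The precision of each value is set by its UMIs.

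Counts were summed per library or class and given per 10000 UMIs, with exact Poisson intervals, exact conditional binomial intervals of ratios, Clopper-Pearson intervals of shares and square-and-add intervals of their differences, all at 95%. Each library was clustered with Seurat 5.3.0 in R 4.3.3 (2000 variable genes without the 7 genes and related genes, 20 principal components, resolution 0.9). Names needed 3 or more markers of 10 UMIs and 1.5 times their mean over the libraries, and were withheld where the 10 leading genes or the depth of a cluster went against them. Doublets predicted by Scrublet in scanpy 1.11.5 (10 control, 0 Taf4 IEC cells) were kept. Python 3.11.15, numpy 2.4.6 and scipy 1.17.1 were used. No gene was tested, because there was 1 library per condition. Genes counted past 2-fold needed 200 UMIs over both libraries. The named genes are the 7 genes, the related genes past 2-fold, the 3 genes most like each, and the leading genes of clusters. Cyr61, Lypd8 and the genes of the single control cell were named after their values were seen. 1 related gene is not reported here by name. The genes and lists were chosen with earlier results of these data known. On counts simulated with Poisson error, the error the intervals assume, they held the true ratio for 96.5% of 200 changed and 95.4% of 9802 unchanged genes. This checks the calculation only, since the simulation held no spread between cells. Alternatives changed the total, the cells kept, their weight and depth, the clustering and the naming.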

Additional observations from a re-analysis of the deposited data

Results flagged for a closer look

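The Anxa1 ratio went in opposite directions in the cell classes. Its log2 ratio, Taf4 IEC over control, was 2.65 in stem-like cells, -1.87 in enterocyte-like cells and -1.496 in Paneth/goblet-like cells, each with an interval for counting error that did not include 0. The difference between classes was not tested, as there was 1 library per condition. Without the cell richest in Anxa1 in each library and class the values were 2.48, -0.35 and -1.22, and the intervals of the enterocyte-like and Paneth/goblet-like values included 0. Between the Apoa1-led enterocyte-like clusters, without the richest cells, it was -3.94 (-7.05 to -1.95). That value rests on few cells, since only 6 of 213 control and 3 of 174 Taf4 IEC cells had an Anxa1 UMI with the richest cells included.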

How the results depend on the processing

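No paired analysis was possible because there was 1 library per condition, and for the same reason no replicate could be left out. Over all cells, the 7 log2 ratios stayed above 0 under the 8 other settings chosen at the outset and the one added after the data were seen. With mitochondrial, ribosomal protein, Gm42418 and AY036118 genes left out of the total, they were 1.19 for Krt19, 2.94 for Ly6a, 0.43 for Ly6e, 1.00 for Cd44 and 1.10 for S100a11. Centred on the median of all genes, Krt19 was at 1.22, Ly6e at 0.46 and S100a11 at 1.13. At the control's cell-type makeup the values were 1.48 for Krt19, 1.52 for Anxa1, 3.46 for Ly6a, 0.84 for Ly6e, 1.74 for Cd44 and 1.5002 for S100a11. With every cell weighing the same, Anxa1 was at 1.54, Ly6e at 0.56 and S100a11 at 1.397. Thinned to 2000 UMIs per cell, Anxa1 was at 0.70, Ly6a at 3.56, Ly6e at 0.42 and S100a11 at 1.13, and thinned to 500 Anxa1 was at 1.58, Ly6e at 0.43, Cd44 at 1.501 and S100a11 at 1.17. Without the cell richest in the gene, the added alternative, Ly6a was at 3.71. The cause of these shifts was not tested.

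Of 370 alternative values of the 28 ratios within classes, 6 reversed a ratio whose interval did not include 0. In enterocyte-like cells Ly6e was at -0.99 and S100a11 at -0.25, both with a marker threshold of 2 and between the Apoa1-led clusters (added after seeing the data), which are the same cells, and S100a11 was at -0.20 with the libraries clustered together. Anxa1 in Paneth/goblet-like cells was at 0.035 with every cell weighing the same. Without thinning, the differences in share of cells with a UMI were -4.53 points for Krt19 and -16.0 for Ly6e. Of the related genes, 9 were higher and 3 lower with the low-quality genes left out of the total. In cells of at least 2000 UMIs 2 were lower. With equal weight of cells 9 were higher and 2 lower, and with no minimum of UMIs 3 were lower. The shares over all genes are not given at these settings, so these counts have no such share beside them. Clu rested on 45 and 61 UMIs.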

Other observations

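Ly6d, of the Ly6 family, and Sprr1a, of the fetal and repair list, also differed by class. Ly6d had 26 UMIs in control and 603 in Taf4 IEC stem-like cells, a log2 ratio of 5.87 (5.30 to 6.49). Of these 603 UMIs 195 lay in 1 cell, and only 43 of the 452 Taf4 IEC stem-like cells had any. Without the richest cell of each library the log2 ratio was 5.42 (4.83 to 6.08). Paneth/goblet-like cells held 141 and 4 UMIs of Ly6d. The log2 ratio was -4.53 (-6.43 to -3.14), and 84 of the 141 lay in 1 cell. Without the richest cell of each library that value was -3.63. Sprr1a had 303 control and 69 Taf4 IEC UMIs in enterocyte-like cells, a log2 ratio of -3.17 (-3.57 to -2.79), and 6 and 36 in stem-like cells, a log2 ratio of 3.92 (2.66 to 5.46). It was found in few cells, 15 of 213 control and 6 of 317 Taf4 IEC enterocyte-like cells. Single Taf4 IEC cells held 44 of the 69 and 20 of the 36 UMIs, and without the richest cells the log2 ratios were -4.25 and 3.34.

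Trp53inp1 was higher in the Taf4 IEC library in each of the 4 classes, with log2 ratios of 3.64 among stem-like cells, 1.55 among enterocyte-like ones, 2.50 for the Paneth/goblet-like class and 1.49 for the enteroendocrine-like class. Areg was at 3.41, 0.12, 2.04 and 2.06 in the same order. In the 15 tuft-like cells of the Taf4 IEC library, Cd44 was at 0.935 per 10000 on 20 UMIs, the highest of the 27 clusters, Anxa1 at 0.374 on 8 UMIs, and Clu had 0 UMIs.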
